A study of Mus musculus with 9 samples.

Results

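The 37 genes described here encode the enzymes that take glucose from its entry into the cell to the citrate cycle. The rule takes them by symbol in pathway order and uses no measured value, though the set was drawn up with earlier results of these data known. All 37 were found among the 28059 gene IDs of an RNA-seq table. They comprise 3 genes of glucose entry, 16 of glycolysis and its regulation, 6 of the pentose phosphate pathway, 6 of the fate of pyruvate and 6 of the citrate cycle. The table covers YAMC cells, a conditionally immortalised line of mouse intestinal cells, in which Cdk8, a kinase of the Mediator complex that regulates transcription, had been disrupted with CRISPR. It holds 3 libraries of Cdk8 -/- clone 1, 3 of Cdk8 -/- clone 19 and 3 of the wildtype parental line. Cells of all groups were grown at 32 °C and taken for RNA in logarithmic growth, and total RNA was made into TruSeq libraries. The labels give small intestine as the tissue. Each knockout group is 1 clone, and no clone with intact Cdk8 was analysed, so what the lost Cdk8 did and what growing up from a single cell did cannot be told apart.

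Glycolysis splits glucose into pyruvate in the cytosol. Hexokinase traps the sugar in the cell, phosphofructokinase commits it to the pathway, and the later enzymes recover the energy as ATP and NADH. The pentose phosphate pathway branches off after hexokinase and makes NADPH for synthesis and defence against oxidants together with ribose for nucleotides, while pyruvate dehydrogenase passes carbon to the citrate cycle in the mitochondrion. Many steps have several isozymes, encoded by separate genes and expressed in different tissues, and many of the glycolytic genes are known targets of the hypoxia-inducible factors and of Myc.

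The promoters of 4 members are shown because these had the largest falls in glucose entry (Hk2), glycolysis (Pfkl) and the pentose phosphate pathway (G6pdx), and the largest rise of all members (Aldoc). They are from RefSeq on GRCm38.p6, 250 bases before to 50 after the start site. Capitals mark ACGTG on either strand (CACGT on the other), a form of the core that hypoxia-inducible factors recognise. Other forms of that core were not searched for. ACGTG is also contained in CACGTG, the E-box that Myc recognises.
Hk2, chr6:82774405-82774704, minus strand: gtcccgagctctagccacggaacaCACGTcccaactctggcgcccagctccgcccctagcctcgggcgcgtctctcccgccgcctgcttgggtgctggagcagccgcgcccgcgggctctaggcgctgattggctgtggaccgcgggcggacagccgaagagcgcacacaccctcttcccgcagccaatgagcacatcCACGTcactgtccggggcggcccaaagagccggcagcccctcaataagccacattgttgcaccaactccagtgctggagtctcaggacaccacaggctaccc
Pfkl, chr10:78009758-78010057, minus strand: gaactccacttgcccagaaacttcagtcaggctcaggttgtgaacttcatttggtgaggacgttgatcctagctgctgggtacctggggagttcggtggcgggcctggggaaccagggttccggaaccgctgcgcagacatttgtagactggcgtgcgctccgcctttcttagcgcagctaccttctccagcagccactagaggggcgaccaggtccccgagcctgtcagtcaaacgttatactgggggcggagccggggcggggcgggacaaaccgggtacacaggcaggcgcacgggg
Aldoc, chr11:78322823-78323122, plus strand, one of 2 entries: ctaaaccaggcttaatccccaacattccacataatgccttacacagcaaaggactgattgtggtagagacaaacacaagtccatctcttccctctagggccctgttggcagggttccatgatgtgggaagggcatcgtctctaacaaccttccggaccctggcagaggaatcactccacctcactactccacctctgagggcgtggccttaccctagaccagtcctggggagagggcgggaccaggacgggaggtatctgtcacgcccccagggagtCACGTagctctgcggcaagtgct
G6pdx, chrX:74428831-74429130, minus strand: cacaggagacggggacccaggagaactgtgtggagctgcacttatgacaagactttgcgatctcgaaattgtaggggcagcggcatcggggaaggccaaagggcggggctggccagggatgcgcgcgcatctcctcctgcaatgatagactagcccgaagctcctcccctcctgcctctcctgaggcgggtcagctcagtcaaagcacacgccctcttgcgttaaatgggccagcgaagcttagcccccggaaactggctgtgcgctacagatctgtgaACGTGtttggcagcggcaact
Counting the start site as 0, ACGTG lay at -226 to -222 and at -52 to -48 in the Hk2 promoter. It lay at 27 to 31 in this Aldoc entry and at 29 to 33 in the G6pdx promoter. The other Aldoc entry, which is not printed, holds no ACGTG on either strand. The Pfkl window holds no ACGTG on either strand. Of the 36 member genes with an entry, 18 (50%) held ACGTG in at least 1 entry, against 30.04% of the 9002 tested genes with an entry and 21.78% of all 27025 genes in the table of promoters. Genes differ in their number of entries, and more entries give more windows for a match. These shares and those that follow do not allow for that. The full E-box CACGTG was in 5 of the 36 (13.89%), against 12.22% of tested genes. TGACNNNGC, the core of the element that Nrf2 (gene Nfe2l2) recognises, was in 6 (16.67%), against 16.96% of tested genes, with 1 match in G6pdx. A match to such short letters is a description of the window and not a binding site.

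Values are RPKM as the authors deposited them, the reads of a gene scaled by its length in kilobases and by the megareads of the library. Depth was estimated from genes above 0 in only 1 of the 9 libraries, with their annotated exon lengths. It assumes that most such values stand for 1 read. The estimate was 22.9 to 32.0 megareads in clone 1, 24.3 to 32.9 in clone 19 and 27.9 to 43.4 in parental cells. Cdk8 was at 10.3, 11.1 and 11.6 RPKM in clone 1 and at 10.5, 10.3 and 10.3 in clone 19, against 17.5, 17.7 and 17.5 in parental cells. It was lower in every knockout library, although well above 0, and transcript level alone does not show whether protein was made. The defining markers of the intestinal epithelium Cdx2, Vil1, Muc2 and Lgr5 were among the 12 of 17 listed epithelial markers below 1 RPKM in every library. The summed level of that list was 991 to 1041 RPKM in clone 1 and 985 to 990.1 in clone 19, against 635 to 655 in parental cells. Of its 5 tested genes, the keratins Krt8, Krt18 and Krt19 were higher in both clones, the keratin Krt7 was lower in both, and the cadherin Cdh1 was higher in clone 19. Krt7 averaged 4.74 RPKM in clone 1 and 14.9 in clone 19, against 22.1 in parental cells. The mesothelial list, which shares those keratins, had 7 of 8 genes higher and 1 lower in both clones. Its sum was 2689 to 2788 RPKM in clone 1 and 2727 to 2739 in clone 19, against 1579 to 1595 in parental cells. The 9 mesenchymal markers summed to 2222 to 2272 RPKM in clone 1, 1961 to 2024 in clone 19 and 2249 to 2307 in parental cells. All 9 were called, with 4 higher and 5 lower in clone 1 and 3 higher and 6 lower in clone 19. The neuron and glia list, with 2 tested genes, 1 higher and 1 lower in each clone, summed to 46.2 to 47.2 RPKM in clone 1 and 48.3 to 49.97 in clone 19, against 67.2 to 68.5 in parental cells. The 4 endothelial markers summed to 0.812 to 0.876 RPKM in clone 1 and 0.79 to 0.947 in clone 19. In parental cells they summed to 1.61 to 1.78 RPKM, and their 1 tested gene was lower in both clones. Immune and skeletal muscle markers had no tested gene, and their sums were at most 1.04 and 0.286 RPKM in any library. These lists differ between the clones and the parental line alongside the results that follow, and their part in them was not tested. In bulk RNA, fewer cells with a transcript and less of it in each cell cannot be told apart.

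Levels ranged over several orders of magnitude among the members. Mdh2, the mitochondrial malate dehydrogenase, was the most abundant in every group, at a mean of 321 RPKM in clone 1, 291 in clone 19 and 316 in parental cells. Pkm, the pyruvate kinase of most proliferating cells, and Aldoa, the ubiquitous aldolase, came after it together with Tpi1, triose phosphate isomerase. Every library had these above all other glycolytic members. At the low end of the tested members were Pfkfb2, a bifunctional enzyme that sets the level of a phosphofructokinase activator, Pcx, the pyruvate carboxylase that feeds the citrate cycle, and Eno2, the neuronal enolase, with 2.03 RPKM as the highest value in any library. Pdk4, a kinase that switches pyruvate dehydrogenase off, was the 1 member under the filter of 1 RPKM in at least 3 of the 9 libraries, so 36 members entered the tests. The levels repeated closely within groups, with a median coefficient of variation over members of 2.58% in clone 1, 2.44% in clone 19 and 2.18% in parental cells. The least repeatable members were Gapdh in clone 1 (12.3%) and in clone 19 (12.9%) and Eno2 in parental cells (14.7%).

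**Figure D1:**
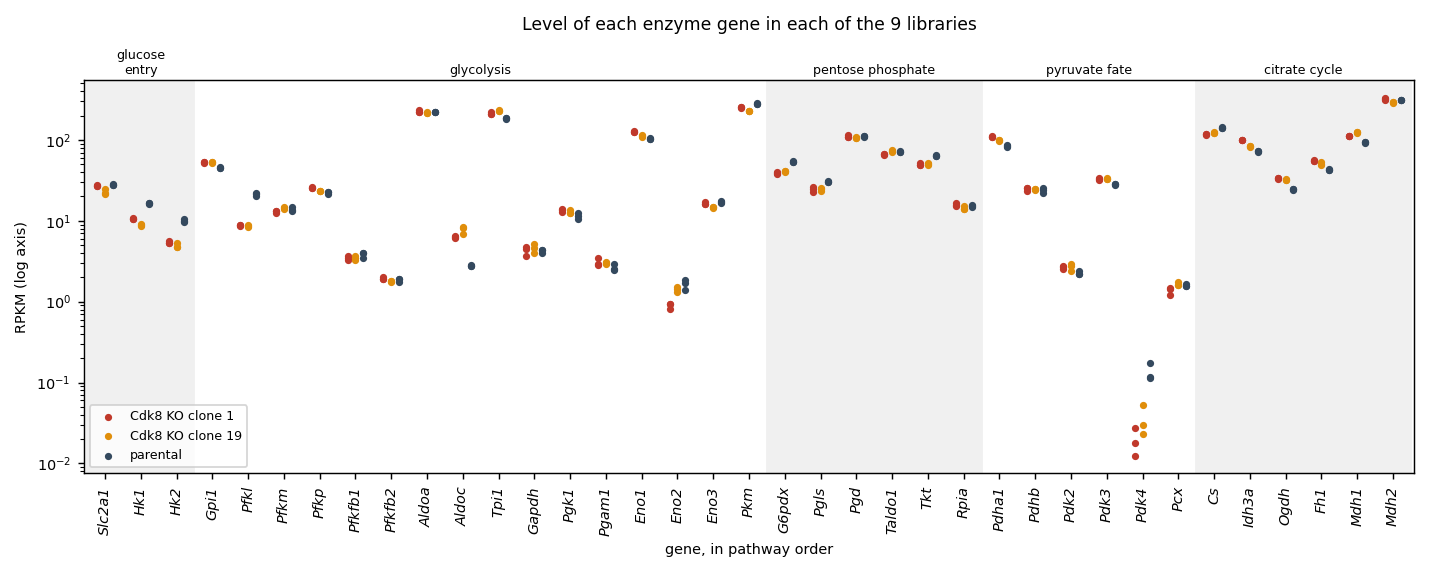
RPKM of the 37 members in each of the 9 libraries on a log axis, in pathway order, with clone 1 and clone 19 given before parental cells. Points of 1 gene lie close together within a group, from Pdk4 below 0.2 RPKM up to Mdh2; Pfkl and Hk2 show the parental points above those of both clones, and Aldoc shows them below.

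Gapdh, glyceraldehyde phosphate dehydrogenase, was listed at only 4.30 ± 0.530 RPKM in clone 1 and 4.59 ± 0.591 in clone 19, against 4.25 ± 0.221 in parental cells (SD, n = 3 each). Tpi1, the enzyme before it in the pathway, was at 213 ± 5.67, 228 ± 3.55 and 186 ± 2.03 RPKM in the same groups. Gapdh is among the members whose transcript sequence is repeated elsewhere in the genome, in processed pseudogenes and other copies. Of its distinct stretches of 50 bases, 58.36% also occurred in transcripts of other genes that do not overlap it, with 89 other genes sharing at least 100 of them. The shares were 67.96% for Pgk1, 49.51% for Eno1, 41.48% for Pgam1 and 30.26% for Pdhb, and 21 members shared none at all. How the counting treated reads that fit several places is not given in the sources used here, and its effect on these levels was not tested. The levels of these 5 genes, and to a lesser degree of Gpi1 and Pkm (18.95% and 18.35%), are therefore uncertain.

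**Figure D2:**
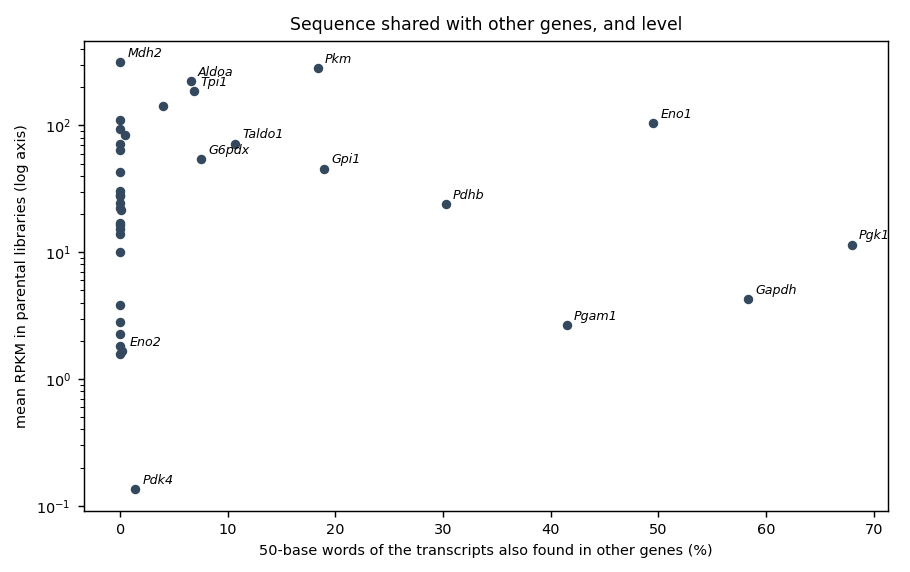
Mean parental RPKM of each member (log axis) against the percent of its distinct 50-base stretches that also occur in transcripts of other, non-overlapping genes. Gapdh, Pgk1 and Pgam1 combine a large share with a low level, while Eno1 has a share of 49.51% at a mean of 104 RPKM.

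Across the members the enzymes went both ways in the knockout clones. In clone 1, 13 of the 36 tested members were higher than in parental cells and 10 were lower at a limma adjusted p under 0.05, which is 63.89% called. Over all 12568 genes tested, 72.4% were called in that comparison. In clone 19, 13 members were higher and 11 lower, which is 66.67%, against 69.0% of all genes. The shares of members called are thus near the background and below it. The median log2 fold change of the tested members was 0.02 in clone 1 and 0.03 in clone 19, against 0.03 and 0.02 over all genes. Their median size without sign was 0.21 in both clones, against 0.22 in clone 1 and 0.20 in clone 19 over all genes. The same 3 parental libraries serve both comparisons, so a call in both clones is not an independent repeat. In both, 13 members were higher, against 30.7% of all genes, and 8 were lower, against 25.8%, while 10 were called in neither. Calls in the same direction made up 58.33% of the members, against 56.5% of all genes. The labels do not describe the libraries of a group as separate cultures, so the p-values cover the spread among these libraries alone.

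**Figure D3:**
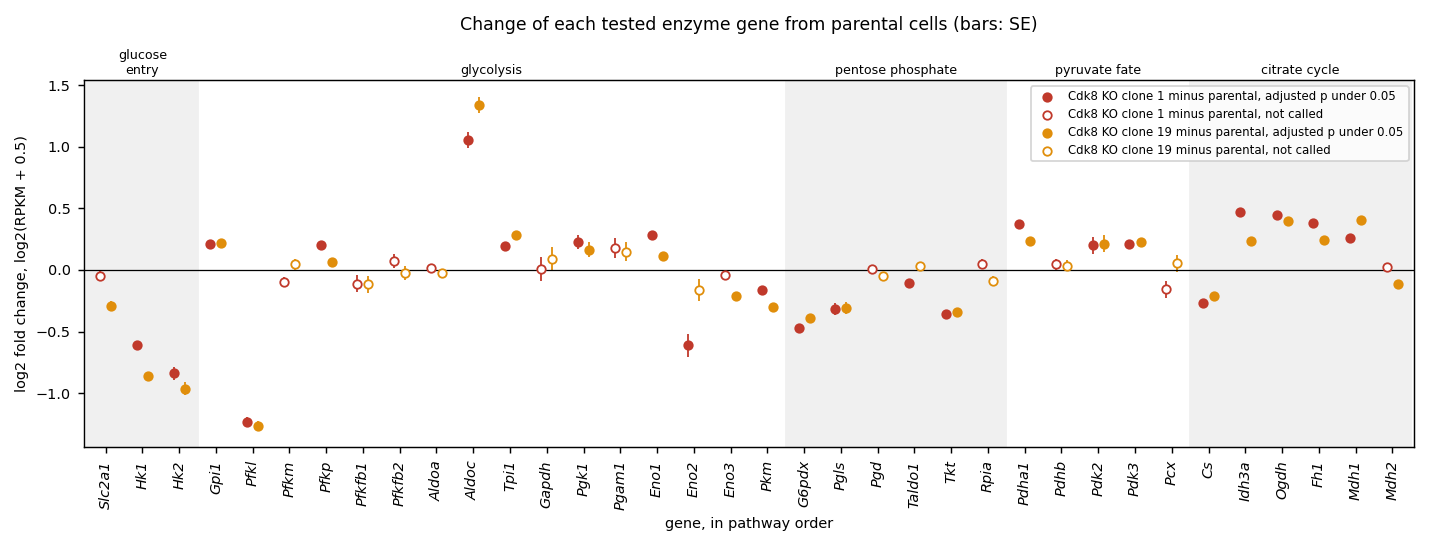
Log2 fold change on the log2(RPKM + 0.5) scale of each tested member in clone 1 and clone 19 over parental cells, with bars of 1 standard error, in pathway order; filled points passed and open points did not. Pfkl lies lowest at -1.24 and -1.26, Hk2 is the next lowest in both clones at -0.84 and -0.96, and Aldoc lies highest at 1.05 and 1.34.

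Only 4 of the 36 members were called in the same direction with a log2 change of at least 0.4 in both clones, a size that 17.7% of all tested genes reached. They were Hk1, Hk2 and Pfkl, lower in both, and Aldoc, higher in both. Over all tested genes, 39.8% were higher and 32.6% lower in clone 1, and 36.7% were higher and 32.3% lower in clone 19. By step, glucose entry had 2 genes lower in clone 1 and 3 in clone 19 of 3, with none higher. Glycolysis had 6 higher and 3 lower of 16 in each clone. The pentose phosphate pathway had no gene higher, with 4 of 6 lower in clone 1 and 3 in clone 19. Of 5 tested genes of pyruvate fate, 3 were higher in each clone and none was lower. The citrate cycle had 4 of 6 higher in each clone, with 1 lower in clone 1 and 2 in clone 19.

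Both hexokinases expressed in these cells were lower in the clones. Hk1, the broadly expressed hexokinase, had 10.5, 10.6 and 10.7 RPKM in clone 1 and 8.60, 9.20 and 8.76 in clone 19, against 16.2, 16.4 and 16.6 RPKM in parental cells. The 3 groups did not overlap, and clone 19 was lowest. The log2 fold change was -0.61 ± 0.03 in clone 1 (SE; limma adjusted p = 2.8e-08) and -0.86 ± 0.03 in clone 19 (limma adjusted p = 2.2e-09). Hk2, the inducible hexokinase of muscle, fat and tumours, had 5.56, 5.32 and 5.39 RPKM in clone 1 and 4.75, 5.35 and 4.72 in clone 19, against 10.1, 10.5 and 9.70 RPKM in parental cells. Every clone library was below every parental one, while the clones overlapped each other. The change was -0.84 ± 0.05 in clone 1 (limma adjusted p = 8.5e-08) and -0.96 ± 0.05 in clone 19 (limma adjusted p = 3.1e-08). The sum of both hexokinases per length was 16.0 ± 0.0759 RPKM in clone 1 and 13.8 ± 0.662 RPKM in clone 19, against 26.5 ± 0.372 RPKM in parental cells (SD, n = 3 each). Hk1 made up 66.2% of that sum in clone 1 and 64.2% in clone 19, against 61.9% in parental cells, so the drop involved both isozymes. Slc2a1, the basal glucose transporter of the plasma membrane, had 27.4, 26.6 and 27.1 RPKM in clone 1 and 21.5, 24.5 and 22.1 in clone 19, against 27.8, 28.5 and 27.5 RPKM in parental cells. It was lower in clone 19, by -0.29 ± 0.04 (limma adjusted p = 7.6e-05), and its change of -0.05 in clone 1 did not pass (limma adjusted p = 0.32). With quantile normalization the clone 1 value was -0.10 and passed (limma adjusted p = 0.0497).

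Phosphofructokinase showed the largest fall among the members. Pfkl, the liver-type subunit, had 8.61, 8.89 and 8.80 RPKM in clone 1 and 8.36, 8.83 and 8.54 in clone 19, against 20.2, 22.4 and 21.3 RPKM in parental cells. The clones overlapped each other and lay far below all parental libraries. The log2 fold change was -1.24 ± 0.04 in clone 1 (limma adjusted p = 5.7e-10) and -1.26 ± 0.04 in clone 19 (limma adjusted p = 5.0e-10), a fold of 0.425 and 0.416. The other subunits did not follow. Pfkp, the platelet-type subunit, had 25.4, 26.0 and 25.7 RPKM in clone 1 and 23.4, 23.1 and 23.4 in clone 19, against 22.5, 21.7 and 22.7 RPKM in parental cells. It was higher in clone 1 by 0.20 (limma adjusted p = 2.8e-05), while the 0.06 in clone 19 (limma adjusted p = 0.042) lost its call in 12 of the 20 alternatives run for a gene, among them without each clone 19 library, without clone 1 replicate 3 and without parental replicate 1 or 2. Pfkm, the muscle-type subunit, had 12.4, 13.4 and 13.1 RPKM in clone 1 and 14.0, 14.8 and 14.2 in clone 19, against 13.7, 13.3 and 14.6 RPKM in parental cells. Each clone overlapped the parental libraries, and clone 19 lay above clone 1. Its changes of -0.10 in clone 1 (limma adjusted p = 0.053) and 0.04 in clone 19 (limma adjusted p = 0.37) did not pass, although the clone 1 value passed without clone 1 replicate 2 (limma adjusted p = 0.0371) and without parental replicate 2 (limma adjusted p = 0.0283). The clone 1 value also passed with median-ratio scaling, quantile normalization or, as described below, neighbouring genes subtracted (limma adjusted p = 0.015, 0.0325 and 0.0145). Summed per length, the 3 subunits came to 47.4 ± 0.973 RPKM in clone 1 and 46.3 ± 0.505 RPKM in clone 19, against 57.5 ± 1.09 RPKM in parental cells (SD, n = 3 each). Pfkl was 18.5 ± 0.0811% of that sum in clone 1 and 18.5 ± 0.306% in clone 19, against 37.1 ± 1.69% in parental cells. Pfkp took the largest mean share in each group, at 54.2% in clone 1 and 50.5% in clone 19, against 38.8% in parental cells. In parental cells it was close to Pfkl, which had the larger share in parental replicate 2 (39.0% against 37.8%). Pfkfb1, a bifunctional enzyme of the same activator as Pfkfb2, averaged 3.50 RPKM in clone 1 and 3.49 in clone 19, against 3.82 in parental cells. Pfkfb2 averaged 1.95 and 1.80 RPKM in those clones, against 1.83 in parental cells. No change of either passed, with limma adjusted p-values between 0.16 and 0.73, but Pfkfb1 passed in both clones without parental replicate 1 (limma adjusted p = 0.0359 and 0.0347), at -0.18. Pfkfb1 in clone 1 also passed with neighbouring genes subtracted, at -0.23 (limma adjusted p = 0.0154). Pfkfb2 in clone 1 passed with quantile normalization, at 0.14 (limma adjusted p = 0.0475).

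**Figure D4:**
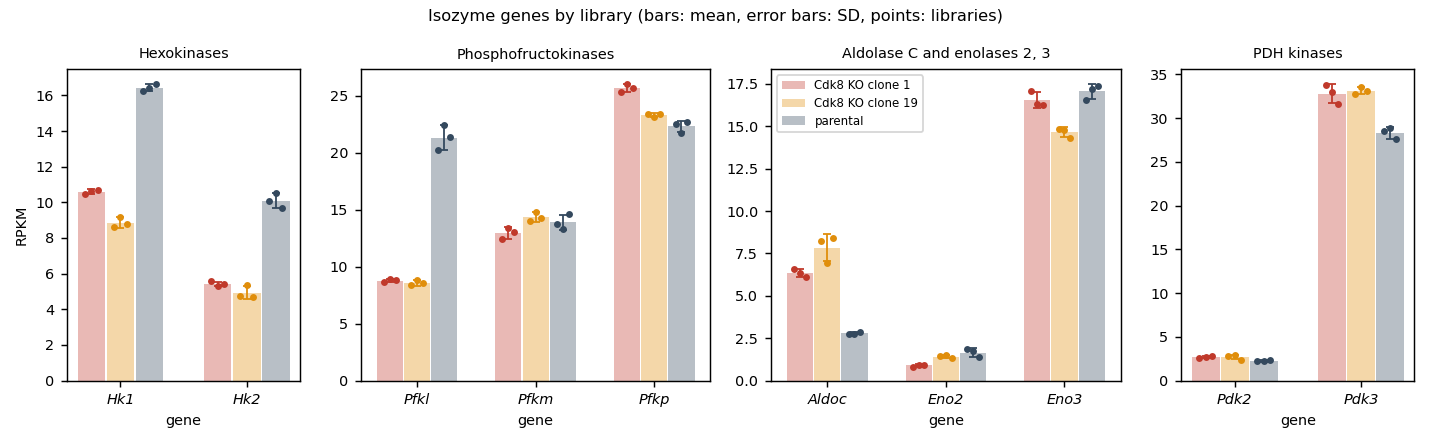
RPKM of the hexokinases, the phosphofructokinases, aldolase C with enolases 2 and 3, and the pyruvate dehydrogenase kinases in clone 1, clone 19 and parental cells, in that order (bars are means from 0, error bars are SD of 3 libraries, points are libraries; Aldoa, Eno1 and Pdk4 are off this scale and not drawn). Hk1, Hk2 and Pfkl show all clone points below the parental ones, Aldoc shows them above, and Pfkm overlaps between groups.

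Of the aldolases, the minor form rose, and for the abundant form a call and its direction depended on the processing. Aldoa had 222, 233 and 222 RPKM in clone 1 and 217, 221 and 218 in clone 19, against 221, 222 and 225 RPKM in parental cells, and the groups overlapped. Its changes of 0.02 and -0.02 did not pass (limma adjusted p = 0.42 and 0.32), but with quantile normalization they were -0.09 in clone 1 and -0.12 in clone 19 and passed (limma adjusted p = 4.2e-04 and 6.7e-05). With neighbouring genes subtracted, Aldoa passed the other way in clone 1, at 0.05 (limma adjusted p = 0.0323). In clone 19 it was then at -0.04 and did not pass (limma adjusted p = 0.07). Aldoc, the brain-type aldolase, had 6.57, 6.33 and 6.09 RPKM in clone 1 and 8.21, 6.95 and 8.38 in clone 19, against 2.75, 2.77 and 2.86 RPKM in parental cells. Every clone library was more than double any parental one, and clone 19 was above clone 1. The log2 fold change was 1.05 ± 0.06 in clone 1 (limma adjusted p = 7.5e-08) and 1.34 ± 0.06 in clone 19 (limma adjusted p = 1.2e-08). Aldoc nevertheless supplied only 2.73 ± 0.123% of the aldolase sum in clone 1 and 3.46 ± 0.357% in clone 19, against 1.24 ± 0.0144% in parental cells (SD, n = 3 each).

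Gpi1, Tpi1 and Pgk1 were higher in both clones and Pkm was lower, while Gapdh and Pgam1 were called in neither. Gpi1, which converts glucose phosphate to fructose phosphate, averaged 53.0 ± 0.50 RPKM in clone 1 and 53.3 ± 0.625 in clone 19, against 45.6 ± 1.02 in parental cells (SD, n = 3 each), higher by 0.21 and 0.22. Tpi1 was higher by 0.19 in clone 1 and 0.29 in clone 19. Pgk1, phosphoglycerate kinase, which yields the first ATP of the pathway, averaged 13.5 ± 0.520 RPKM in clone 1 and 12.9 ± 0.644 in clone 19, against 11.5 ± 0.940 in parental cells. Its rise of 0.23 passed in clone 1 (limma adjusted p = 0.0039), and that of 0.17 in clone 19 (limma adjusted p = 0.023) did not without clone 19 replicate 2 (limma adjusted p = 0.0915), parental replicate 2 (limma adjusted p = 0.0959) or parental replicate 3 (limma adjusted p = 0.0541). Gapdh differed by 0.01 in clone 1 and 0.09 in clone 19, inside the spread of its libraries (limma adjusted p = 0.95 and 0.41). Pgam1, the phosphoglycerate mutase of most tissues, averaged 3.07 RPKM in clone 1 and 2.99 in clone 19, against 2.65 in parental cells. Those differences of 0.18 and 0.15 did not pass (limma adjusted p = 0.064 and 0.12), but both did without parental replicate 3 (limma adjusted p = 0.0239 and 0.0425), and that of clone 1 also without clone 1 replicate 1 (limma adjusted p = 0.0341) and with quantile normalization (limma adjusted p = 0.0227). Pkm fell, to 252 ± 3.94 RPKM in clone 1 and 229 ± 2.18 in clone 19, against 282 ± 2.98 in parental cells. That is a log2 change of -0.16 (limma adjusted p = 8.3e-06) and -0.30 (limma adjusted p = 5.6e-08).

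The 3 enolases, which make phosphoenolpyruvate, each had their own pattern. Eno1, the ubiquitous enolase, had 125, 130.4 and 125 RPKM in clone 1 and 109.9, 116 and 112 in clone 19, against 105, 103 and 104 RPKM in parental cells. All clone libraries were above all parental ones, with a change of 0.28 in clone 1 (limma adjusted p = 1.5e-06) and 0.12 in clone 19 (limma adjusted p = 0.0016). With quantile normalization the clone 19 value was 0.00. Eno2 had 0.818, 0.943 and 0.943 RPKM in clone 1 and 1.44, 1.50 and 1.30 in clone 19, against 1.85, 1.72 and 1.38 RPKM in parental cells. Clone 1 lay below both other groups, which overlapped. The change was -0.61 ± 0.09 in clone 1 (limma adjusted p = 1.0e-04) and -0.16 ± 0.09 in clone 19 (limma adjusted p = 0.13), where it passed at -0.26 without parental replicate 3 (limma adjusted p = 0.0214). Eno3, the muscle enolase, had 17.1, 16.3 and 16.2 RPKM in clone 1 and 14.9, 14.8 and 14.3 in clone 19, against 16.6, 17.2 and 17.4 RPKM in parental cells. Here clone 19 lay below both other groups, at -0.21 (limma adjusted p = 1.3e-04), and clone 1 overlapped parental cells, at -0.04 (limma adjusted p = 0.25).

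In the pentose phosphate pathway the entry enzyme and the main transketolase were lower. G6pdx, the X-linked dehydrogenase of glucose phosphate that commits sugar to the pathway and makes its NADPH, had 38.1, 38.8 and 39.8 RPKM in clone 1 and 40.6, 41.2 and 41.6 in clone 19, against 54.6, 54.0 and 53.8 RPKM in parental cells. The groups did not overlap, with the clones close to each other and far below the parental line. The change was -0.47 ± 0.02 in clone 1 (limma adjusted p = 8.8e-09) and -0.39 ± 0.02 in clone 19 (limma adjusted p = 4.3e-08). Pgls, the lactonase that follows, averaged 24.5 ± 1.89 RPKM in clone 1 and 24.6 ± 0.850 in clone 19, against 30.5 ± 0.817 in parental cells (SD, n = 3 each), lower by -0.31 in both. Tkt, transketolase, which returns pentoses to glycolysis, averaged 49.9 ± 1.2 RPKM in clone 1 and 50.3 ± 0.880 in clone 19, against 63.9 ± 1.23 in parental cells, with changes of -0.35 and -0.34. Between them stands Pgd, phosphogluconate dehydrogenase, the other source of NADPH, with means of 112 and 107 RPKM in those clones, against 111 in parental cells. Its changes of 0.01 and -0.05 did not pass (limma adjusted p = 0.73 and 0.067). That of clone 19 passed without clone 1 replicate 2 (limma adjusted p = 0.0281) and under median-ratio scaling (-0.07), and quantile normalization gave -0.12 in clone 1 and -0.16 in clone 19, which both passed (limma adjusted p = 1.5e-04 and 1.8e-05). Taldo1, transaldolase, was lower in clone 1, at 66.7 RPKM, with 73.4 in clone 19 and 71.8 in parental cells. Its change was -0.10 in clone 1 (limma adjusted p = 0.0017) and 0.03 in clone 19 (limma adjusted p = 0.24), where quantile normalization gave -0.06, which passed (limma adjusted p = 0.0437). Rpia, the isomerase that makes ribose phosphate, averaged 15.8 RPKM in clone 1, 14.3 in clone 19 and 15.3 in parental cells. Neither of its changes passed, at 0.05 and -0.09 (limma adjusted p = 0.33 and 0.072), though the clone 19 value did without clone 19 replicate 1 (limma adjusted p = 0.0144). The clone 19 value also passed with median-ratio scaling, array weights or neighbouring genes subtracted (limma adjusted p = 0.0375, 0.0429 and 0.00363).

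At the branch of pyruvate, the catalytic subunit and a kinase that inhibits it were both higher. Pdha1, the X-linked alpha subunit of pyruvate dehydrogenase, averaged 109.6 ± 1.60 RPKM in clone 1 and 99.2 ± 1.26 in clone 19, against 84.3 ± 1.53 in parental cells (SD, n = 3 each). It was higher by 0.38 in clone 1 (limma adjusted p = 2.8e-08) and by 0.23 in clone 19 (limma adjusted p = 1.6e-06). Pdhb, the beta subunit that pairs with it, averaged 24.7 RPKM in clone 1 and 24.5 in clone 19, against 23.9 in parental cells, and was called in neither. The kinases phosphorylate the alpha subunit and so shut the complex down. Pdk3 had 33.8, 33.0 and 31.6 RPKM in clone 1 and 32.8, 33.5 and 33.1 in clone 19, against 28.5, 28.9 and 27.6 RPKM in parental cells. It held 92.4% of the kinase sum of the members in each clone, against 92.2% in parental cells. That sum leaves out Pdk1, which is not a member. Pdk1 averaged 1.89 RPKM in clone 1 and 2.32 in clone 19, against 3.54 in parental cells, so the share among all kinases was not even. Pdk3 was higher by 0.21 in clone 1 (limma adjusted p = 5.6e-05) and 0.22 in clone 19 (limma adjusted p = 3.7e-05), with no overlap. Pdk2 had 2.55, 2.67 and 2.78 RPKM in clone 1 and 2.77, 2.91 and 2.40 in clone 19, against 2.18, 2.19 and 2.39 RPKM in parental cells. The lowest clone library stood barely above the highest parental one. Its rise of 0.20 in clone 1 (limma adjusted p = 0.022) did not pass without clone 1 replicate 3 (limma adjusted p = 0.0748), parental replicate 1 (limma adjusted p = 0.0701) or parental replicate 2 (limma adjusted p = 0.0653). That of 0.21 in clone 19 (limma adjusted p = 0.018) did not pass without clone 19 replicate 1 or 2 (limma adjusted p = 0.0563 and 0.0748) or parental replicate 1 or 2 (limma adjusted p = 0.0602 and 0.0558).

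Pdk4, the kinase induced in fasting, had 0.0125, 0.0177 and 0.0276 RPKM in clone 1 and 0.0296, 0.0521 and 0.0233 in clone 19, against 0.118, 0.113 and 0.175 RPKM in parental cells. All clone libraries were below all parental ones. At the estimated depths these values amount to 0.996 to 2.99 reads in clone 1 and 1.97 to 5.97 reads in clone 19, against 10.9 to 19.8 reads in parental cells, so no fold change is given. Pcx averaged 1.38 RPKM in clone 1 and 1.67 in clone 19, against 1.59 in parental cells. Its changes of -0.16 and 0.05 did not pass (limma adjusted p = 0.066 and 0.52), and that of clone 1 did without clone 1 replicate 3 (limma adjusted p = 0.0484). The clone 1 value also passed with median-ratio scaling or in a fit without trend (limma adjusted p = 0.0369 and 0.0273).

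Most citrate cycle enzymes among the members were higher, and the entry enzyme was lower. Cs, citrate synthase, averaged 118 ± 1.99 RPKM in clone 1 and 123 ± 2.23 in clone 19, against 142 ± 0.863 in parental cells (SD, n = 3 each). It was lower by -0.27 in clone 1 (limma adjusted p = 3.5e-07) and by -0.21 in clone 19 (limma adjusted p = 2.7e-06). Idh3a, the catalytic subunit of the NAD-dependent isocitrate dehydrogenase, had 99.1, 98.8 and 99.3 RPKM in clone 1 and 82.4, 85.4 and 84.8 in clone 19, against 72.3, 70.2 and 72.2 RPKM in parental cells. The 3 groups were separate, with clone 19 in the middle. It was higher by 0.47 ± 0.02 in clone 1 (limma adjusted p = 5.1e-09) and by 0.23 ± 0.02 in clone 19 (limma adjusted p = 1.6e-06). Ogdh, the dehydrogenase of oxoglutarate that follows, had 33.7, 33.6 and 32.9 RPKM in clone 1 and 32.3, 32.1 and 32.8 in clone 19, against 24.9, 24.0 and 24.4 RPKM in parental cells. All clone libraries exceeded all parental ones, by 0.44 in clone 1 (limma adjusted p = 2.2e-08) and 0.40 in clone 19 (limma adjusted p = 5.6e-08). Fh1, fumarase, averaged 56.0 ± 0.926 RPKM in clone 1 and 51.0 ± 1.81 in clone 19, against 43.0 ± 0.869 in parental cells. Its changes were 0.38 and 0.24. Mdh1, the cytosolic malate dehydrogenase of the malate-aspartate shuttle, had 111, 112 and 113 RPKM in clone 1 and 123, 124 and 126 in clone 19, against 92.5, 95.5 and 93.1 RPKM in parental cells. Its rise was the largest of these 6 genes in clone 19, 0.41 (limma adjusted p = 1.2e-08), beside 0.26 in clone 1 (limma adjusted p = 4.1e-07). Mdh2 fell in clone 19 by -0.12 (limma adjusted p = 4.3e-04), and its 0.03 in clone 1 did not pass (limma adjusted p = 0.28), but was -0.07 under quantile normalization, which did (limma adjusted p = 0.0305). With neighbouring genes subtracted, Mdh2 passed as higher in clone 1, at 0.11 (limma adjusted p = 5.65e-04). In clone 19 it was then at 0.03 and did not pass (limma adjusted p = 0.15).

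Several of these changes were shared with genes beside the member on its chromosome. On chromosome 10, which holds Hk1, Pfkl and Cs, the median log2 fold change of 557 tested genes was -0.30 in clone 1 and -0.29 in clone 19. Around each gene, the median of the 50 nearest tested genes was taken in the gene order of GRCm38 and subtracted in every library. Cs had neighbours at -0.34 in clone 1 and -0.33 in clone 19, and relative to them it was higher, by 0.08 and 0.12 (limma adjusted p = 0.00358 and 1.73e-04). Pfkl had neighbours at -0.37 and -0.36 and remained lower, by -0.87 in clone 1 and -0.90 in clone 19. Hk1 had neighbours at -0.33 in both and remained lower, by -0.28 in clone 1 and -0.53 in clone 19. Hk2, on chromosome 6, had neighbours at -0.03 in clone 1 and 0.02 in clone 19, and its change was hardly touched, at -0.81 and -0.98. On the other side, Ogdh had neighbours at 0.40 and 0.35, and its change relative to them was 0.05 in each clone (limma adjusted p = 0.112 and 0.0963). Eno1 and Pgd lie on chromosome 4. Eno1 had neighbours at 0.35 in clone 1 and 0.30 in clone 19, and relative to them it was lower, by -0.06 and -0.18. Pgd had neighbours at 0.33 and 0.28 and was lower relative to them, by -0.32 in clone 1 and -0.33 in clone 19. Pgk1 came to 0.06 and 0.04, neither of which passed (limma adjusted p = 0.441 and 0.543). Mdh1 kept a rise of 0.08 in clone 1 and 0.16 in clone 19. With neighbours subtracted, 12 members were higher and 14 lower in clone 1, and 10 were higher and 12 lower in clone 19. The share of all genes called in that way is not given here, so these counts have no matching background. The cause of these shared changes was not tested.

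**Figure D5:**
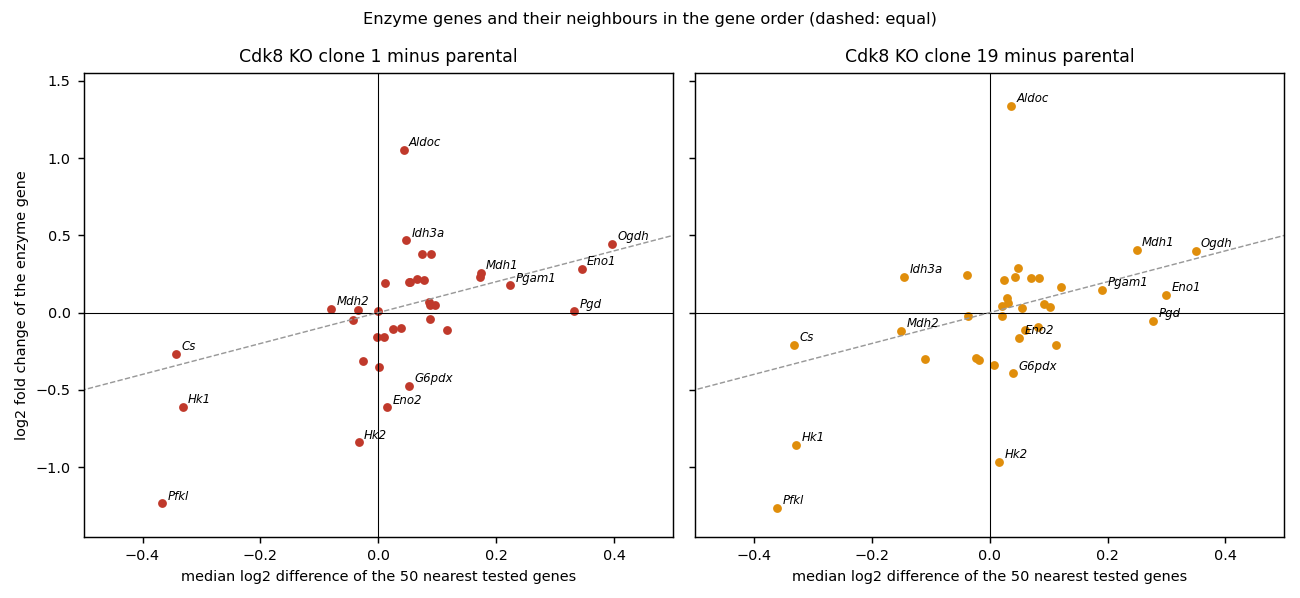
Log2 fold change of each tested member against the median log2 fold change of its 50 nearest tested genes in the gene order, for clone 1 and clone 19 over parental cells in separate panels, with a line of equality. Ogdh lies near the line in both panels, Cs above it and Eno1 and Pgd below it, while Pfkl and Hk2 lie far below it and Aldoc far above it.

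The clones also differed from each other. Comparing clone 19 with clone 1, a contrast that does not use the parental levels, 9 members were higher in clone 19 and 11 lower, which is 55.56% of the 36, against 43.0% of all tested genes. These differences were small, with a median size of 0.11 on the log2 scale for the members and 0.10 for all genes, and 2 members were called with a change of at least 1.2-fold, against 12.0% of all genes. Those were Eno2, higher by 0.45 ± 0.09 (limma adjusted p = 0.0026), and Aldoc, higher by 0.29 ± 0.06 (limma adjusted p = 0.0047). Of the 3 glucose entry genes, 2 were lower in clone 19, Hk1 and Slc2a1, both at -0.25 (limma adjusted p = 1.9e-04 and 8.4e-04). Idh3a was lower by -0.23 (limma adjusted p = 1.2e-05) and Mdh1 higher by 0.15 (limma adjusted p = 1.6e-04). Pfkl had a difference of -0.03 ± 0.04 that did not pass (limma adjusted p = 0.58). Hk2, at -0.13 (limma adjusted p = 0.073), passed without clone 19 replicate 2 (limma adjusted p = 0.0132).

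The rest of the pathway was read from a list of 67 further genes, of which 43 passed the filter. In clone 1, 16 of the 43 were higher and 15 lower, and in clone 19, 11 were higher and 18 lower, with 11 higher and 13 lower in both. That is 72.09% called in clone 1 and 67.44% in clone 19, near the 72.4% and 69.0% of all genes. Of 16 other citrate cycle genes, 9 were higher and 4 lower in clone 1 (39.8% and 32.6% of all genes), and 8 were higher and 5 lower in clone 19 (36.7% and 32.3% of all genes). Among the higher ones were all 4 subunits of succinate dehydrogenase, such as Sdhc at a mean of 93.3 RPKM in clone 1 and 90.5 in clone 19, against 75.2 in parental cells (0.31 and 0.27). The smallest changes of the 4 were those of Sdha, 0.13 in clone 1 and 0.06 in clone 19. With neighbouring genes subtracted, Sdha and Sdhb were called in neither clone (limma adjusted p = 0.097 to 0.504), and Sdhc was at 0.08 and 0.16. The strongest of the lower ones was Idh2, the mitochondrial NADP-dependent isocitrate dehydrogenase, at 41.1 RPKM in clone 1 and 46.7 in clone 19, against 73.8 in parental cells. Its change was -0.84 in clone 1 (limma adjusted p = 3.3e-10) and -0.65 in clone 19 (limma adjusted p = 2.1e-09). Other glucose entry and glycolysis genes that fell in both clones by at least 0.5 were Slc2a8, an intracellular glucose transporter, and Pgm2, a gene of the phosphoglucomutase family. Slc2a8 averaged 2.30 RPKM in clone 1 and 2.44 in clone 19, against 3.82 in parental cells, with changes of -0.63 and -0.56. Its neighbours were at -0.41 and -0.42, and relative to them it was at -0.22 in clone 1 and -0.14 in clone 19, which did not pass (limma adjusted p = 0.0641). Pgm2 averaged 12.2 and 12.1 RPKM in those clones, against 19.1 in parental cells, with changes of -0.62 and -0.64. Pdk1, a pyruvate dehydrogenase kinase induced in hypoxia, went the other way from Pdk3. It averaged 1.89 RPKM in clone 1 and 2.32 in clone 19, against 3.54 in parental cells, at -0.76 and -0.52, and at -0.49 and -0.26 relative to its neighbours. Lactate dehydrogenase A, Ldha, averaged 109 RPKM in clone 1 and 91.2 in clone 19, against 114 in parental cells, at -0.06 (limma adjusted p = 0.031) and -0.32 (limma adjusted p = 1.4e-07). Ldhb, another lactate dehydrogenase gene, was near the filter. It averaged 0.458 RPKM in clone 1 and 1.17 in clone 19, against 0.931 in parental cells. Its change was -0.58 in clone 1 (limma adjusted p = 8.9e-04), and 0.22 in clone 19 did not pass (limma adjusted p = 0.11).

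Of 12 listed regulators of the pathway, 9 passed the filter, and in each clone 2 were higher and 6 lower than in parental cells, with 2 higher and 5 lower in both. That is 88.89% called in each clone, against 72.4% of all genes in clone 1 and 69.0% in clone 19. Txnip, an arrestin-like protein that limits glucose uptake and responds to glucose through the factors Mlxip and Mlx, averaged 9.64 RPKM in clone 1 and 8.57 in clone 19, against 14.5 in parental cells. Its change was -0.57 in clone 1 and -0.73 in clone 19. Arrdc4, its relative with the same inputs, averaged 1.15 and 0.755 RPKM in those clones, against 1.90 in parental cells, at -0.54 and -0.94. Hif1a, the oxygen-regulated factor, was lower by -0.18 and -0.14, and Arnt, its partner, was higher by 0.39 and 0.52, and by 0.19 and 0.25 relative to its neighbours. Myc was lower, at 47.5 RPKM in clone 1 and 46.8 in clone 19, against 61.0 in parental cells, by -0.36 and -0.38. Nfe2l2, the factor that drives several pentose phosphate genes under oxidative stress, was lower by -0.32 and -0.27. Relative to its neighbours it was at -0.12 in clone 1 and -0.06 in clone 19, which did not pass (limma adjusted p = 0.0664). Hif1a, Arnt, Myc and Nfe2l2 were picked after their values were seen. The other regulator that was higher in both clones is not named here, and Mlx and Mlxip are given no values. These are transcript levels, and the activity of the factors was not measured.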

How the data were processed

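RNA-seq was made from 9 libraries, 3 of each Cdk8 -/- clone and 3 of parental YAMC cells. The authors deposited RPKM values for 28059 Entrez gene IDs. Per the submitters' processing notes, GSNAP, a spliced aligner, DESeq and the build NCBIM37 were used, with no roles or versions. Not given in the sources used here are the annotation, the counting of reads that fit several places, and whether size factors entered the values. IDs were named through RefSeq (24998) and GENCODE (16), and 3045 had no name. The tables' build, GRCm38, differs from the authors', so it served only for names, gene order, printed promoters and the exon lengths behind the estimated depths. Sequence sharing used transcripts of GENCODE M21.

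For the tests, log2(RPKM + 0.5) was fitted by limma 3.58.1 (R 4.3.3) with its trend of variance on level, for 12568 genes with RPKM of at least 1 in at least 3 libraries. Fold changes are on that scale, which understates changes of low genes. Adjustment was by Benjamini-Hochberg within each contrast, with calls at 0.05. Depths, 22.9 to 43.4 megareads, are estimates from the table, so no count test was run. The fit was tested on simulated data. Members and lists were chosen with earlier results of these data known.

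Values in every library are given for members called with a log2 change of at least 0.4 and for isozymes of 5 enzymes. Other pathway genes are named where called the same way in both clones at 0.5 or more. Ldha, Ldhb, Sdha, Sdhb, Sdhc, Hif1a, Arnt, Myc and Nfe2l2 were added after their values were seen. The 21 alternatives were each library left out, a pseudocount of 0.1 or of 1, the filter dropped or set to 3 RPKM, scaling by median ratio, quantile normalization, a fit without trend, with array weights, with a replicate block or with the compared groups alone, neighbouring genes subtracted (990 tested genes without neighbours kept their values), and a 1.2-fold minimum.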

Additional observations from a re-analysis of the deposited data

Results flagged for a closer look

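For 20 members the effect in clone 19 differed from that in clone 1, by the limma test of clone 19 minus clone 1 at an adjusted p under 0.05. The log2 differences that were higher in clone 19 were 0.45 for Eno2, 0.29 for Aldoc, 0.21 for Pcx, 0.15 for Mdh1, 0.14 for Taldo1, 0.14 for Pfkm, 0.095 for Tpi1, 0.080 for G6pdx and 0.055 for Cs. Those that were lower were -0.25 for Hk1, -0.25 for Slc2a1, -0.23 for Idh3a, -0.17 for Eno1, -0.17 for Eno3, -0.14 for Pkm, -0.14 for Pdha1, -0.14 for Fh1, -0.14 for Mdh2, -0.14 for Pfkp and -0.14 for Rpia. Against 43.0% of all tested genes, such differences are common in this pair of clones. Pfkm lost its call without clone 1 replicate 1 and without clone 19 replicate 2 (limma adjusted p = 0.0654 each). Cs, Pcx and Rpia lost theirs without several single libraries of the clones, among them clone 19 replicate 3 (limma adjusted p = 0.141, 0.0549 and 0.0702), and Cs also without any single parental library (limma adjusted p = 0.0577 to 0.0607). With neighbouring genes subtracted, Idh3a (-0.04), Pkm (-0.02), Fh1 (-0.01), Pcx (0.11) and Cs (0.04) no longer passed.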

How the results depend on the processing

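Over the members, leaving out each library gave 12 to 14 higher and 10 to 11 lower in clone 1, 10 to 13 higher and 11 to 12 lower in clone 19, and 7 to 8 higher and 10 to 12 lower for clone 19 minus clone 1. With at least a 1.2-fold change required, clone 1 had 6 higher and 8 lower, clone 19 had 4 higher and 8 lower, and clone 19 minus clone 1 had 2 higher and 0 lower. Over all tested genes that rule called 42.5% in clone 1, 38.1% in clone 19 and 12.0% for clone 19 minus clone 1. Shares of all genes under the other settings are not given here, so those counts have no matching background. Quantile normalization gave 15 higher and 15 lower in clone 1 and 11 higher and 14 lower in clone 19. It changed the sign of Aldoa (-0.093), Pgd (-0.12) and Mdh2 (-0.071) in clone 1 and of Taldo1 (-0.056) in clone 19. None of these had been called without it, and all then passed as lower. Subtracting neighbours changed the sign of Eno1 (-0.060), Pgd (-0.32) and Cs (0.077) in clone 1, and of Eno1 (-0.18), Cs (0.12) and Mdh2 (0.034) in clone 19. Of these, Pgd had not been called without it, and Mdh2 no longer passed. In clone 1, Aldoa (0.054) and Mdh2 (0.11) then passed as higher. The cause was not tested. With group means removed, correlations of same-numbered libraries ran from -0.04 to 0.12. Differently numbered libraries were not compared, so these values cannot show whether the numbering pairs libraries. The replicate block gave 13 higher and 10 lower in clone 1, 12 and 12 in clone 19, and 7 and 12 for clone 19 minus clone 1. Median-ratio scaling shifted all genes by -0.03 in clone 1 and -0.02 in clone 19. Depth limits Pdk4, at under 3 estimated reads in clone 1, and Gapdh and Eno2 had the widest spread between libraries of a group.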
